A study of Mus musculus with 12 samples.

Results

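The choroid plexus is the secretory tissue that hangs in the brain ventricles and makes cerebrospinal fluid. Its epithelium pumps ions and water from blood into the fluid, exports carrier proteins and vitamins with them, and carries cilia on its surface. The plexus of the lateral ventricle is attached along the edge of the hippocampus, so a dissected hippocampus can hold some of it. Transthyretin is the best known product of this epithelium in brain, and neurons and glia of the hippocampus make little of it.

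Here 10 genes known as markers of choroid plexus were followed in hippocampal RNA: Ttr, Kcnj13, Kl, Folr1, Aqp1, Clic6, Otx2, Sostdc1, Slc4a5 and Enpp2. They were picked by name, with earlier results of these data known, so counts over them describe them and are no independent support. In the platform annotation 9 of the 10 had a transcript cluster with a single gene, 1 cluster each, among 19938 genes with such a cluster. Enpp2 was not analysed here. A transcript cluster is the set of probes along 1 gene on the Affymetrix Mouse Gene 1.0 ST array, and its deposited value is a PLIER intensity on a linear scale.

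The mice were 6 adult males of the Madison (MSN) strain and 6 adult males of hsd:ICR (ICR), and each array held the macrodissected hippocampus of 1 mouse, taken the day after its locomotor activity had been recorded. MSN is a single inbred line with a manic phenotype that was bred from the outbred ICR stock by way of an ancestor selected for wheel running, so any feature of this 1 line and mania cannot be told apart. The comparison of strains asks what differs in the hippocampus of MSN mice, and the comparison of mice within a strain asks whether plexus genes go up and down together. No batch was given in the labels. The median intensity of an array lay between 270.2 and 298. Precision is limited by the number of arrays.

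The plexus markers differed widely from mouse to mouse, in much the same order of mice in each gene. MSN mouse 4 and ICR mouse 2 were the 2 highest mice in 9 of 9 markers. ICR mouse 1 was among the 3 lowest in 9 of 9, and ICR mouse 3 and MSN mouse 3 were among the 3 lowest in 8 of 9 each. Both strains held mice at the top and at the bottom of the range. The median of every marker over the 12 mice was above an intensity of 100. In bulk tissue, fewer cells of a type and less RNA per cell cannot be told apart, and how much plexus each hippocampus held was not measured.

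**Figure D1:**
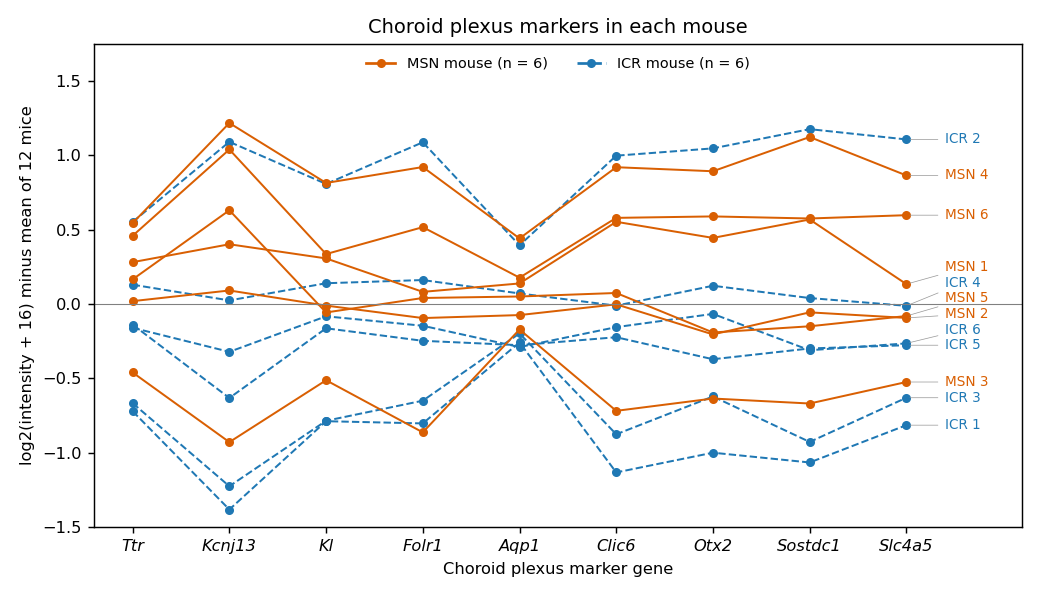
Level of 9 choroid plexus markers in each mouse, as log2(intensity + 16) relative to the average of all 12 mice for that gene, with solid orange lines for MSN and dashed blue lines for ICR mice. The lines keep much the same order, with ICR 2 and MSN 4 at the top and ICR 1 lowest in most genes, and they draw together at Aqp1.

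Among the carriers and receptors, Ttr encodes transthyretin, which carries thyroid hormone and retinol in the fluid. Its intensity was 6563 in the lowest, 10567 in the median and 13193 in the highest MSN mouse. In ICR mice it was 5475, 8148 and 13266. The strains overlapped over most of this range, and the highest mouse of all was an ICR mouse.

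Folr1 encodes the folate receptor that moves folate across the epithelium. Its lowest, median and highest intensities were 308, 600.3 and 1103 in MSN mice. The ICR mice had 322, 499.5 and 1240. Here the lowest mouse was MSN mouse 3 and the highest ICR mouse 2, so that the ICR values spanned nearly the whole MSN range.

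Kl encodes klotho, the co-receptor of the hormone FGF23, which some hippocampal neurons make as well. Its intensities were 698, 1120 and 1776 in MSN mice. The ICR mice had 574, 920 and 1768. The 2 strains met at the top, where MSN mouse 4 and ICR mouse 2 were nearly level.

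Among the channels and transporters, Kcnj13 varied most. It encodes Kir7.1, an inward rectifier potassium channel of secretory epithelia. It read 997, 2754 and 4476 in MSN mice and 724, 1379 and 4098 in ICR mice, a 6.18-fold range over the 12 mice. Of the ICR mice, 5 lay below the median MSN mouse, yet ICR mouse 2 passed all MSN mice but MSN mouse 4.

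Slc4a5 encodes a sodium bicarbonate cotransporter of fluid secretion. It read 209, 315 and 575 in MSN mice and 168, 253 and 683 in ICR mice. Clic6, a chloride channel protein of water-secreting epithelia, read 216, 466 and 709 in MSN mice and 158, 320 and 749 in ICR mice. In both genes the ICR mice gave the lowest and the highest value.

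Aqp1 encodes the water channel of the epithelial surface, found also in other tissues. It read 210 to 330 in MSN mice, with a median of 256, and 193 to 319 in ICR mice, with a median of 202. With a 1.72-fold range over the 12 mice it moved least of the 9 markers, while the ranges of the others ran from 2.42-fold for Ttr to that of Kcnj13. Both medians of Aqp1 lay under the smallest array median, 270.2, and whether low intensity narrowed its range was not tested. The ICR medians of Otx2, 228, and Slc4a5, 253, lay under it too, with ranges of 4.54-fold and 4.06-fold over the 12 mice.

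Otx2 is the homeodomain transcription factor on which the plexus epithelium depends, and Sostdc1 is a secreted inhibitor of BMP signaling that also acts on Wnt signaling. Otx2 read 166, 300 and 508 in MSN mice and 125, 228 and 567 in ICR mice. Sostdc1 read 558, 1101 and 1976 in MSN mice and 420.3, 724 and 2050.4 in ICR mice. Both genes covered a wider range within ICR, 4.54-fold and 4.88-fold, than within MSN, 3.07-fold and 3.54-fold, a difference that was not tested.

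Beside all 23410 clusters with a gene, the markers were among the most variable on the arrays. The standard deviation of Kcnj13 within strains was 0.84 on the log2 scale, and 0.0342% of clusters had a larger one. For Ttr the standard deviation was 0.43 and the share with a larger one 0.265%. Aqp1 was the exception, at 0.25, with 2.15% of clusters above it.

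A pair of promoter stretches is shown, because Otx2 is the transcription factor among the markers and the markers moved together. Otx2 and its relatives bind the motif TAATCC. RefSeq promoters (GRCm38.p6, 250 bases before to 50 bases after a start) were at hand for 5 of the 9 markers. They had 8 starts in all, several of them of Otx2. On either strand, TAATCC or its complement GGATTA stood in 1 of these 8 promoters, against 7.06% of 32851 promoters. That promoter was one of Otx2 itself, so 1 of the 5 genes had the motif. The shorter core TAATC, a part of that motif and searched after the first result was seen, stood in 3 of the 8, in Kcnj13, Kl and Otx2, against 22% of all promoters. In Kl the core did not lie within the 250 bases before the start. In the sequences, which end at the last base before the start, capitals mark the motif.
Otx2, chr14:48665110-48665359, minus strand: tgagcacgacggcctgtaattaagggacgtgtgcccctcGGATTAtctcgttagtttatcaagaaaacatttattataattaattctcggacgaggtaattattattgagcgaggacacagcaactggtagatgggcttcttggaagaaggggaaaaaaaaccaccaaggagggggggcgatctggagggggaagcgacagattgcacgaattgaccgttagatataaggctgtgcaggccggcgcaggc
Kcnj13, chr1:87394730-87394979, minus strand: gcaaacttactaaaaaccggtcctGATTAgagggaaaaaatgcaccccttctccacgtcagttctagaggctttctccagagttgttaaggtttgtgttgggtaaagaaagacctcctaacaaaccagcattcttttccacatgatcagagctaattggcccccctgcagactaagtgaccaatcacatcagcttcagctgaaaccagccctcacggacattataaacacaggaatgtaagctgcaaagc
The Otx2 stretch carries the full motif in its reverse orientation, and the Kcnj13 stretch carries the core alone. A match of letters is a description of the window and says nothing on binding.

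All 8 other markers rose with Ttr across mice. The question was tested in limma by fitting the log2(intensity + 16) of each cluster on strain and on the Ttr value of the mouse, with Benjamini-Hochberg adjustment over 23409 clusters. Of all clusters 0.504% were called at an adjusted p under 0.05, 0.457% rising with Ttr and 0.047% falling. Kcnj13 rose by 1.94 log2 units for each log2 unit of Ttr (standard error 0.113, adjusted p = 1.66e-06 from limma), and Clic6 by 1.54 (standard error 0.0891, adjusted p = 1.66e-06). Sostdc1 had a slope of 1.64, Folr1 1.46, Otx2 1.45, Slc4a5 1.32 and Kl 1.21, with adjusted p values between 1.19e-05 and 0.000238. Aqp1 had the lowest slope, 0.49 (standard error 0.0913, adjusted p = 0.032). Its call was lost without MSN mouse 1, 2, 3 or 4 or ICR mouse 2 or 4, with adjusted p values from 0.0515 to 0.444, the highest without ICR mouse 2.

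Slopes above 1 mean that these markers covered a wider range on the log2 scale than Ttr. With the mean of the other markers in the place of Ttr, 8 of 8 rose again at the same threshold.

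The co-variation was also read inside each strain. Over 12 mice the Pearson correlation with Ttr was 0.984 for Clic6 and 0.981 for Kcnj13, with a permutation p = 1e-05 for each, the smallest that 100000 permutations can give. Spearman's rho was 0.986 and 0.972. Of the 8 relations computed, that of Aqp1 was the weakest, with r = 0.870 (permutation p = 0.00042) and rho = 0.881 (permutation p = 0.00041). The adjusted p values of the same relations, over all clusters, are those of the slopes.

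Within the 6 MSN mice r ran from 0.905 for Aqp1 to 0.981 for Kcnj13. Within the 6 ICR mice it ran from 0.812 for Aqp1 to 0.995 for Kl. The exact permutation p of Aqp1 was 0.0167 in MSN and 0.0403 in ICR mice, n = 6 each. Its rank correlation within ICR mice did not pass, with rho = 0.543 (exact permutation p = 0.297, n = 6), while the rho of the other 7 markers was 0.943 or more in both strains. Without the 2 mice farthest from the median of Ttr, ICR mice 1 and 3, r over the other 10 mice stayed between 0.910 and 0.973. No difference in slope between the strains was detected by limma's interaction term, with 0 of 8 markers at an adjusted or an unadjusted p under 0.05. Over all clusters 0 of 23409 passed the adjusted and 973 the unadjusted threshold. The slope differences of the markers, MSN minus ICR, ran from -0.08 to 0.25.

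**Figure D2:**
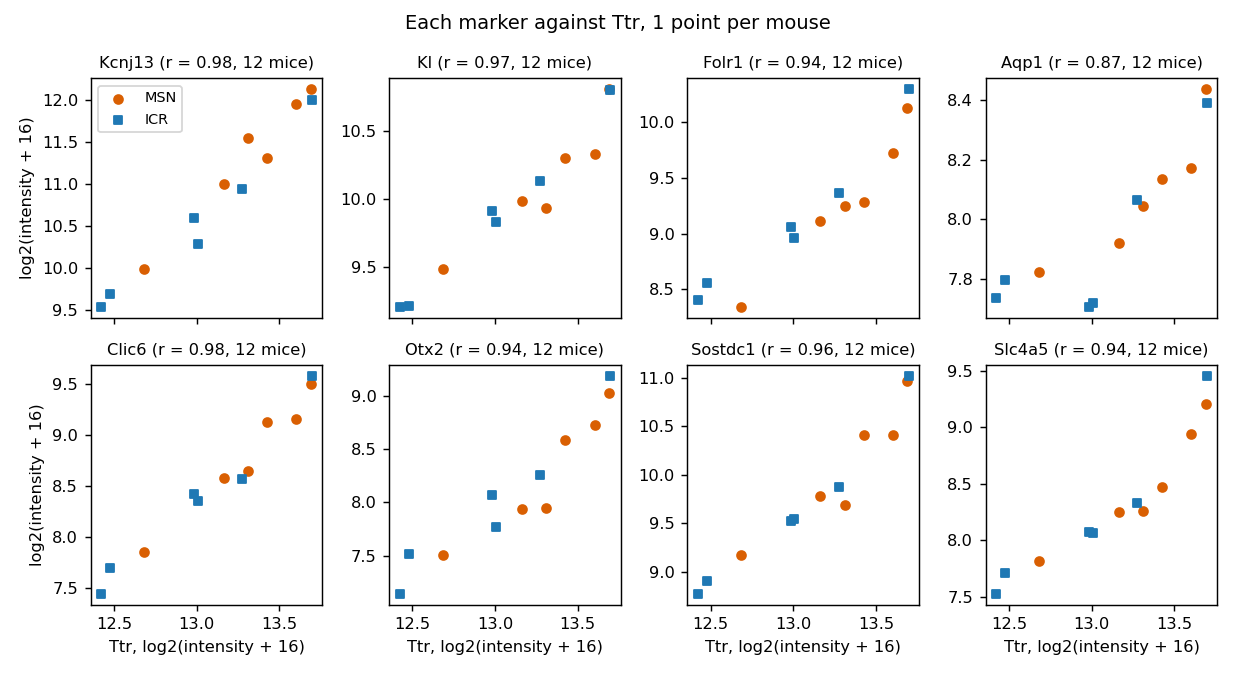
Each marker against Ttr, both as log2(intensity + 16), with 1 point per mouse, orange circles for MSN and blue squares for ICR. In every panel the points of both strains lie along 1 rising band, which is loosest for Aqp1 (r = 0.87).

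Among each other the 9 markers were as tightly linked as with Ttr. Over the 36 pairs r with strain means removed had a median of 0.964 and a highest value of 0.988, for Kl and Sostdc1. The lowest, 0.847, was that of Ttr and Aqp1. The 28 pairs without Aqp1 all had r of 0.939 or more.

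Most genes of a wider choroid plexus list moved with Ttr too. The list was written with earlier results of these data known, so its counts describe it and are no independent support. Of its 41 measured genes, 25 rose with Ttr by the same test, 0 fell and 41 had a slope above 0. Over all clusters 0.457% rose and 12781 of 23409 had a slope above 0. Their median r was 0.864, against 0.0455 for all clusters, and 15 of 41 had r above 0.9, which holds for 0.205% of all clusters. F5, which encodes coagulation factor V, was the closest of all, with r = 0.985 and a slope of 1.28 (adjusted p = 1.66e-06 from limma). Its intensity ran from 174 to 571 over the 12 mice. Lbp, the lipopolysaccharide binding protein, had a slope of 1.53, Cldn2, a tight junction protein of leaky epithelia, 1.34, and Ace, the angiotensin-converting enzyme, 1.06. All 3 had an adjusted p of 4.33e-05 or less. Chosen after their values were seen, the genes of the list with r nearest 0 were Wfikkn2 (r = 0.00309) and the organic anion transporter Slc22a8 (r = 0.0285).

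The 15 genes outside the markers whose pattern was most like that of Ttr, by r with strain means removed over 12 mice, held 8 from this wider list. After F5, Cldn2, Lbp and Ace these were Sulf1, a sulfatase of the cell surface, Calml4, a relative of calmodulin, the serotonin receptor gene Htr2c and the carbonic anhydrase gene Car12. The other 7 were Ap1s2, Slc2a12, Pqlc3, F11r, Frem1, Tc2n and Pip5k1b. Ap1s2, a subunit of a clathrin adaptor, had r = 0.963, and Slc2a12, a glucose transporter, 0.960. F11r, an adhesion molecule of epithelial tight junctions, had 0.951. Their ranges differed much, from 1.34-fold over the 12 mice for Pip5k1b to 5.01-fold for Tc2n.

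At the other end, Ddb2, a DNA damage binding protein, had r = -0.943 and a slope of -0.25 (adjusted p = 0.017 from limma). Dpp4, a dipeptidyl peptidase of cell surfaces, had r = -0.921 and Pip5kl1 r = -0.914, with adjusted p values of 0.00856 and 0.0119. Dennd4a and Mccc1os, at -0.903 and -0.900, did not pass the slope test (adjusted p = 0.111 and 0.420).

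Genes of other cells and regions in or near the hippocampus were read in the same way. These lists and those of pathways below were also written with earlier results of these data known, so their counts are descriptive. Ependymal cells line the ventricle beside the plexus, and of 16 of their markers 3 rose with Ttr and 16 had a slope above 0, with a median r of 0.731. Over all clusters 0.457% rose and 12781 of 23409 had a slope above 0. The median intensity of 2 of the 16 ependymal markers was under 100. Cfap43 did not pass in its brightest cluster, the one counted (adjusted p = 0.0637 from limma). A dimmer cluster of Cfap43 rose with a slope of 0.41 (adjusted p = 0.024). Cfap126 had a slope of 0.82 (adjusted p = 0.00962 from limma), and Ak7 and Spag16 had slopes of 0.40 and 0.39 (adjusted p = 0.0303 and 0.0392). Their part in the plexus result was not tested. The summed ependymal intensity ran from 2986 to 3927 in MSN and from 3147 to 4249 in ICR mice, and Foxj1, the master regulator of motile cilia, had a slope of 0.22 that did not pass (adjusted p = 0.238).

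Of 16 genes of the meninges, 11 of vessels, 10 of mature oligodendrocytes, 9 of astrocytes, 8 of microglia, 12 of thalamus and habenula, 9 of cortex and 15 of the hippocampal fields, limma called 0 for Ttr in each list. Over all clusters the share was 0.504%, so lists this short hold few calls. The median r of these lists, in the same order, was 0.112, -0.316, 0.358, -0.101, 0.0193, 0.186, -0.495 and 0.317. The cortex list had the lowest median, and those of meninges, oligodendrocytes, thalamus and habenula, and hippocampal fields lay above the median of all clusters. Summed over the list, the hippocampal field genes ranged from 21375 to 23684 in MSN and from 19709 to 23310 in ICR mice. The sum of the 9 plexus markers ranged from 9927 to 24646 and from 8164 to 24740.

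**Figure D3:**
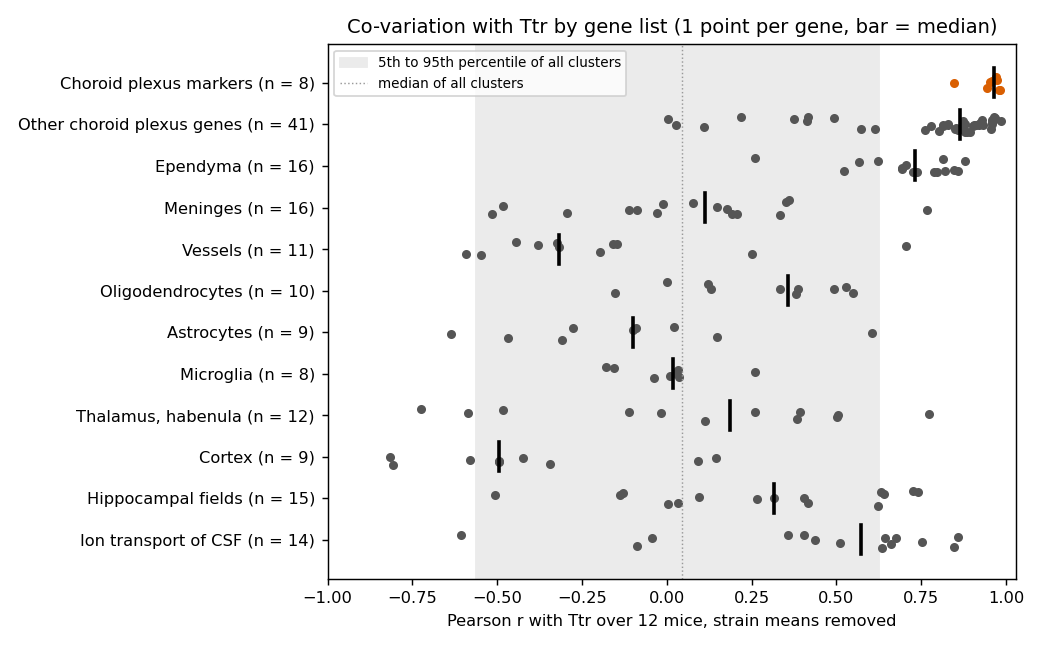
Pearson r with Ttr over 12 mice after strain means were removed, 1 point per gene and 1 row per gene list, with black bars at the medians and the grey band from the 5th to the 95th percentile of all clusters. The choroid plexus rows have the highest medians, 0.965 and 0.864, though single genes of the wider list reach down to 0.00309. The ependyma row follows at 0.731, and the other rows have lower medians.

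The genes around the markers in their pathways gave few calls, as short lists would at the share of all clusters, 0.504%. Of 14 measured genes of fluid secretion (ion pumps, transporters and channels, carbonic anhydrases and regulatory kinases), Slc4a2, the chloride bicarbonate exchanger AE2, rose with Ttr, with a slope of 0.53 (adjusted p = 0.0223 from limma), and 13 did not pass. Of 12 folate genes limma called 0, though Slc46a1, the proton-coupled folate transporter of plexus, had r = 0.905 and a slope of 0.18 (adjusted p = 0.0899). Limma also called 0 of 13 genes of thyroid hormone transport and action, 0 of 13 klotho and phosphate genes, 0 of 11 genes of lysophosphatidate receptors and breakdown, and 0 of 16 genes of the BMP, Wnt and Otx list. In the thyroid list Slco1c1, a thyroxine transporter of vessels and plexus, had the smallest p, with a slope of 0.31 (adjusted p = 0.218). The median r was 0.571 in the fluid secretion list, where 11 of 14 slopes were above 0, and 0.221 in the folate list. It was 0.0109 for thyroid hormone, 0.00553 for klotho and phosphate, 0.291 for lysophosphatidate and 0.173 for BMP, Wnt and Otx.

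Between the strains, limma called 0 of the 9 markers, against 0.777% of 23410 clusters at an adjusted p under 0.05. At an unadjusted p under 0.05 it called 0 of 9 as well, against 12.7% of clusters in either direction and 5.18% higher in MSN. That count rested on ICR mouse 2, the highest ICR mouse in each marker. Without it 7 of 9 passed the unadjusted threshold, against 13.6% of clusters, and 0 the adjusted one. Without MSN mouse 3 the unadjusted count was 2 of 9. In 0 of the 9 did the strains stand apart without overlap, which 1.44% of clusters did. All 9 had a mean above 0 for MSN over ICR, as 45.5% of clusters did, with a median log2 fold change of 0.30 against -0.01. Since the markers rose and fell together from mouse to mouse, their 9 signs are not independent of each other.

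The largest of these differences was that of Kcnj13, whose intensity averaged 2829 ± 1270 (SD, n = 6) for the MSN mice and 1723 ± 1250 (SD, n = 6) for the ICR mice (two-sided exact permutation test, p = 0.126). On the log2 scale MSN exceeded ICR by 0.47 in Clic6, with a standard error of 0.328, and by 0.46 in Sostdc1, with one of 0.357. The excess was 0.20 in Folr1, with a standard error of 0.314, and 0.19 in Aqp1, with one of 0.123. Single mice moved these values. Without ICR mouse 2 the excess was 0.71 in Clic6, 0.75 in Sostdc1, 0.44 in Folr1 and 0.28 in Aqp1. Without MSN mouse 4 it was 0.29 in Sostdc1, 0.036 in Folr1 and 0.12 in Aqp1. Without ICR mouse 1 it was 0.29 in Clic6, 0.30 in Sostdc1 and 0.060 in Folr1. Folr1 was also at 0.39 without MSN mouse 3, 0.12 without MSN mouse 6 and 0.090 without ICR mouse 3. By limma the adjusted p of the 9 markers lay between 0.434 for Kcnj13 and 0.833 for Folr1. Each of the 9 differences was smaller than the standard deviation of that marker within strains.

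The wider list gave the same count between strains. For the lists here the shares of all clusters were 0.777% called, 12.7% at an unadjusted p under 0.05 and 45.5% above 0. Limma called 0 of 41 genes of the wider list, with 1 at an unadjusted p under 0.05. It was Ezr, which encodes the cytoskeletal linker ezrin, 0.12 higher in MSN on the log2 scale (adjusted p = 0.355). Of the 41 genes 31 were above 0, with a median of 0.11. Most genes of the list moved with Ttr, so these signs are not independent of each other. Car12 had the next smallest p, with 0.43 (adjusted p = 0.496). Limma also called 0 of 16 ependymal genes between the strains, with 0 at an unadjusted p under 0.05 and 11 above 0. In the meninges list it called 1 of 16, Fbln1, a matrix protein gene that was 0.23 higher in MSN (adjusted p = 0.0325), and in the other lists of cells, regions and pathways 0.

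The strain differences were also fitted with a marker level of each mouse as a covariate. With Ttr as a covariate limma called 0 of 8 markers, against 0.543% of clusters. Above 0 were 2 of 8, against 10245 of 23409 clusters and 5 of 41 genes of the wider list. With the mean of the other markers as covariate, a fit chosen after the first results were seen, it called 0 of 9, against 0.585% of clusters. Kcnj13 was then at 0.35 (standard error 0.115, adjusted p = 0.220 from limma) and Folr1 at -0.24 (standard error 0.0569, adjusted p = 0.0981). At an unadjusted p under 0.05 these 2 of the 9 passed, against 12.2% of clusters. As the other markers carry much the same strain difference as the one tested, values near and on both sides of 0 follow from the fit itself. Ttr was at 0.07, Clic6 at 0.05, Aqp1 at 0.05 and Sostdc1 at 0.0027. Kl was at -0.05, Otx2 at -0.13 and Slc4a5 at -0.09.

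**Figure D4:**
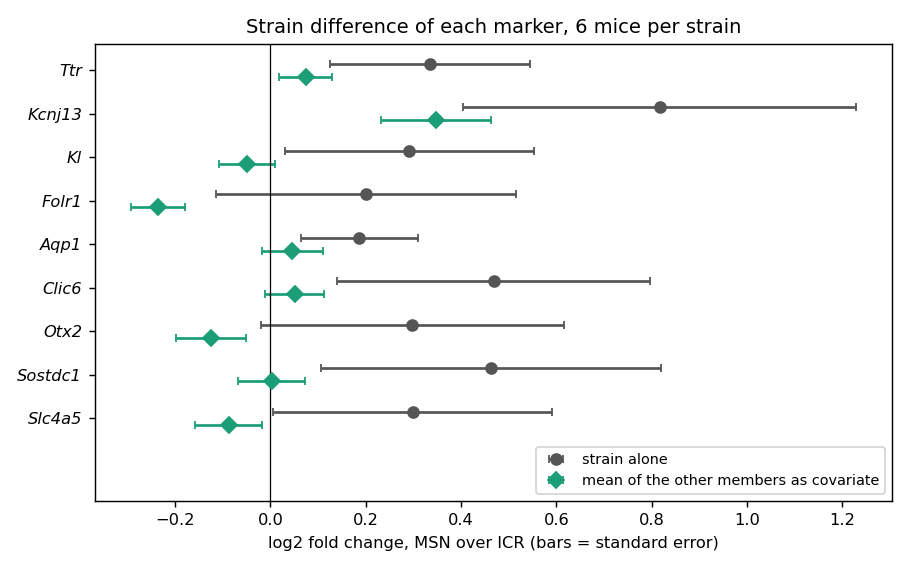
Log2 fold change of MSN over ICR for each marker, with standard errors, for strain alone (grey circles) and with the mean of the other markers as a covariate (green diamonds). All 9 circles lie above 0, and the diamonds, which the fit itself sets around 0, have shorter bars, with Kcnj13 at 0.35 and Folr1 at -0.24 farthest out.

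Of the 182 clusters called between strains, 1 was also called for Ttr, near the share of all clusters, 0.504%. It was Cd59a, a complement regulator, named after its values were seen. Its lowest, median and highest intensities were 1181, 1533 and 2219 in MSN mice and 703, 846 and 1207 in ICR mice, with ICR mouse 2 alone above the lowest MSN mouse. The log2 difference, MSN minus ICR, was 0.84 with an adjusted p of 0.0184 by limma. Its slope on Ttr was 0.59 (adjusted p = 0.017). With Ttr as a covariate Cd59a kept its call at 0.64 (adjusted p = 0.00782). With that covariate limma called 127 clusters between strains, of which 105 were among the 182.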

How the data were processed

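Hippocampal RNA of 12 mice, 6 MSN and 6 ICR, was hybridized to 1 array each. The deposited values are intensity on a linear scale, which the authors summarized by PLIER after GC-bin background correction (Affymetrix Power Tools 1.12.0). Their own fold changes and p values were not used. Of 35556 clusters, 23410 had a gene in the platform annotation, 21789 of them a single gene. For the tests 16 was added and log2 was taken, which understates changes of dim genes. limma 3.58.1 in R 4.3.3 (lmFit, eBayes) was fitted on strain, and on strain and Ttr, with Benjamini-Hochberg adjustment over all these clusters and a threshold of 0.05. A gene of a list with several clusters was read from its brightest. Permutation tests used scipy 1.17.1 and numpy 2.4.6 in Python 3.11.15. Both fits were tested on simulated data.

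Samples were grouped by title. The named genes were the markers, the 15 most and 5 least like Ttr, and up to 4 genes per list with the smallest p. Markers and lists were written from general knowledge, with earlier results of these data known. Alternatives covered pseudocounts, scaling, filters, models, covariates, the replicate block and each left-out array. Same-numbered mice of the strains had correlations of deviations between -0.126 and 0.125, so no strong likeness by number was seen. Whether same-numbered arrays were processed together is not given in the labels and was not tested.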

Additional observations from a re-analysis of the deposited data

How the results depend on the processing

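Limma called 0 of the markers between strains in all 25 alternatives, the 12 left-out arrays included. Of the 9 markers, 5 were tested with only clusters above the median mean and 8 with Ttr as covariate. The direction of the strain difference held for single markers except with a marker level as a covariate, and sizes moved by over 1.5 times without single mice in 7 of the 9. With Ttr as covariate the log2 fold changes turned to -0.12 for Kl, -0.29 for Folr1, -0.049 for Clic6, -0.19 for Otx2, -0.087 for Sostdc1 and -0.15 for Slc4a5. With the mean of the other markers they turned to -0.049 for Kl, -0.24 for Folr1, -0.13 for Otx2 and -0.087 for Slc4a5. The rise with Ttr held for 7 to 8 of 8 markers in 10 other settings and for 7 to 8 when 1 array was left out. It held for 4 with only clusters above the median mean, since 4 of the 8 were then tested. With the replicate block it held for 3, and whether its numbers pair the mice was not tested. Under the block Kcnj13, Kl, Folr1, Slc4a5 and Aqp1 lost their calls. Of the 12 mice, 3 matched best the mouse of their own number. Aqp1 was the marker whose rise was least stable. Beside the left-out mice given above, it missed the threshold when clusters without a gene were included (adjusted p = 0.0958). Over all alternatives its adjusted p ran from 0.00395 to 0.444.

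The count of all clusters called for Ttr, 118, ran from 32 without ICR replicate 2 to 188 without MSN replicate 3 or MSN replicate 5. It was 66 without MSN replicate 4, 179 with a pseudocount of 64, 192 with trend and robust options, 269 with array weights, 73 over all clusters, 71 above the median mean, 66 without the 2 mice farthest in Ttr, 212 with the mean of the other markers and 8 with the block. The count between strains, 182, was 279 with a pseudocount of 64, 315 with array weights, 42 with the block and 91 to 210 with 1 array left out. It was 91 without MSN replicate 4, 93 without ICR replicate 6, 103 without MSN replicate 3 and 118 without ICR replicate 5. The causes were not tested.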

Other observations

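A microRNA gene of plexus and its host moved with Ttr as well, noticed after the values were seen. Mir204 lies in an intron of Trpm3, a cation channel gene of the wider list. The cluster of Mir204 read 481, 635 and 822 in the lowest, median and highest MSN mouse and 495, 610 and 914 in ICR mice, with a slope on Ttr of 0.59 (adjusted p = 0.0234 from limma). Trpm3 read 1050, 1403 and 1780 in MSN and 992, 1209 and 2119 in ICR mice, with a slope of 0.76 (adjusted p = 0.00103 from limma). The highest ICR mouse of both was ICR mouse 2, and between the strains Mir204 differed by -0.0017 on the log2 scale (adjusted p = 0.998). The array reads RNA of the gene and not the mature microRNA, whose 5p arm is shown from RefSeq with the seed, bases 2 to 8, in capitals.
mmu-miR-204-5p, chr19:22750610-22750631, GRCm38.p6, plus strand: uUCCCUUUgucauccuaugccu

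Genes named for cilia and flagella were also looked up after the values were seen. Of 31 measured Cfap genes, 6 rose with Ttr, among them Cfap44, Cfap65 and Cfap126, and 26 had a slope above 0, with r from -0.350 to 0.888 and a median of 0.451. Over all clusters 0.457% rose and 12781 of 23409 had a slope above 0. Limma called 0 of the 31 between strains, against 0.777% of clusters. Igf2, a growth factor of plexus and meninges chosen in the same way, had a slope of 0.68 (adjusted p = 0.00856 from limma) and read 1681 to 2791 in MSN and 1519 to 2867 in ICR mice.

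The ratio of Kcnj13 to Folr1 intensity was computed for each mouse, a pair chosen because the strain differences of the 2 genes lay farthest apart once the level of the other markers was a covariate. It ran from 3.23 to 5.03 in MSN mice, with a median of 4.11, and from 2.25 to 3.30 in ICR mice, with a median of 2.75. The strains overlapped narrowly, since ICR mouse 2 lay above MSN mouse 3. As the pair was chosen on these values, no test was made.

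After strain means were removed, the first principal component over all clusters held 21.1% of the variance, and its correlation with Ttr over the 12 mice was 0.785 in size. For the next component the values were 17.6% and 0.204. The points share arrays, and no cause of the first component was tested.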
